A study of Mus musculus with 14 samples.

Results

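mmu-miR-132 (miR-132 below) is a mouse microRNA encoded beside its close relative mmu-miR-212 (miR-212), and the pair was chosen by name as microRNAs known to respond to the transcription factor CREB. Of the 375 microRNA assays on the array card, 1 measured a member of the pair, miR-132, and miR-212 was not analysed here. The miR-132 assay was detected on 14 of 14 arrays. CREB is switched on by phosphorylation when neurons fire and when many other cells receive growth factor or inflammatory signals, and it drives the shared primary transcript of both microRNAs. In the mouse, the pair has been reported to promote growth and to restrain autophagy in heart muscle cells, and miR-132 has been described in activated leukocytes and in vessel-lining and perivascular cells.

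The arrays came from a mouse heart transplant study, in which 8 to 10 week old animals received a heart as a second, heterotopic graft. In syngeneic transplants donor and recipient were both C57BL/6, and the labels record no rejection. In allogeneic transplants a BALB/c heart was placed in a C57BL/6 recipient, and the labels record rejection. Whole grafts were taken on day 7 (3 syngeneic and 3 allogeneic arrays), and graft-infiltrating lymphocytes (GILs) on day 5 (3 and 3 arrays). A normal BALB/c heart array and a normal C57BL/6 blood array, called PBMC in the sample names and PBL in the protocol, served as the authors' calibrators. RNA from 3 animals was combined for each array, so n counts pools, and the labels do not say how the GILs were isolated. Because the allogeneic hearts were BALB/c and the syngeneic hearts C57BL/6, the strain of the graft and rejection cannot be told apart in whole hearts. The same holds for any graft tissue on the GIL arrays, and so for the comparison of GILs with hearts. Whole grafts also cannot tell a change in the share of a cell type from a change within cells.

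The sequences are shown because they place the assay within its family. The name miR-132 on the card is the older name of the arm now called miR-132-3p. Capitals mark the seed, bases 2 to 8 from the 5′ end, which pairs with targets. The sequences are from RefSeq (build GRCm38.p6, plus strand of chromosome 11).
mmu-miR-132-3p, chr11:75173723-75173744: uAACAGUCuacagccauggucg
mmu-miR-212-3p, chr11:75173443-75173464: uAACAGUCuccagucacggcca
Both mature RNAs have 22 bases and the same seed, and of 1679 mature mouse microRNAs in the RefSeq table these 2 were the ones that carried it. They shared 17 positions and differed at 5, which read A10C, C14U, U17C, U20C and G22A with the base of miR-132-3p first, the position counted from the 5′ end, and then the base of miR-212-3p. The values below therefore belong to a family with 1 seed but report on 1 of its members.

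The hairpins from which the mature strands are cut are shown to place them in the gene, with the measured arm of miR-132 and the matching arm of miR-212 in capitals.
Mir212 hairpin, chr11:75173388-75173478: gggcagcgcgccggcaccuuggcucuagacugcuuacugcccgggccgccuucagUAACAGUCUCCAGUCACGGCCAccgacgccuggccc
Mir132 hairpin, chr11:75173682-75173747: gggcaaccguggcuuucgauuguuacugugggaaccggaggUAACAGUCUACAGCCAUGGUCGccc
Mir212 (91 bases) lay upstream of Mir132 (66 bases), with 203 bases between them. The nearest protein-coding genes were Ovca2, 2195 bases away, and the transcriptional repressor gene Hic1, 3132 bases away.

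The card reports a threshold cycle (Ct), the PCR cycle at which a well becomes positive, so 1 cycle less is about 1 log2 unit more. Levels below are log2 values relative to the mean of a set of reference assays, those found on each of the 7 arrays of a table (210 in the heart table and 137 in the GIL and PBMC table). Heart arrays detected 228 to 260 microRNA assays at a mean reference Ct of 22.4 to 23.9, and the arrays of the other table had a reference Ct of 23.2 to 28.0. Allogeneic GIL pool 3 stood apart from the others, where 161 assays (42.9%) were detected and the reference Ct was 28.0. The differences of miR-132 that involve GILs are therefore also given without it on this scale, but not under other scalings or blocks. Adjusted p-values are from limma with Benjamini-Hochberg adjustment over all assays tested, two-sided, with a threshold of 0.05. The labels do not say that the pools were independent experiments, so p-values measure the spread between pools.

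In whole hearts, miR-132 stood lowest in normal heart, higher in syngeneic grafts and highest in allogeneic grafts. Its Ct was 22.0 in normal heart, 19.9, 21.1 and 21.5 in the syngeneic pools, and 20.2, 19.6 and 20.6 in the allogeneic pools. After scaling, its level was 1.89 in normal heart, 2.49, 2.22 and 2.25 in the syngeneic pools (mean 2.32 ± 0.15 SD, n = 3), and 2.95, 3.46 and 2.86 in the allogeneic pools (mean 3.09 ± 0.32 SD, n = 3). Each allogeneic pool was above each syngeneic pool, and each graft was above the normal array. The Ct values themselves overlapped between the 2 graft groups, since syngeneic pool 1 had the lowest reference Ct.

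The allogeneic hearts exceeded the syngeneic hearts by 0.77 ± 0.25 (SE; 95% interval 0.18 to 1.36), a 1.71-fold difference. With limma this missed the threshold at an adjusted p of 0.0524, in a comparison that called 32.4% of the assays tested, 17.2% as higher and 15.1% as lower. Values without overlap on the higher side, as miR-132 had, were found for 26.5% of the assays. miR-132 ranked 55th from the highest of 238 assays by this difference. Allogeneic pool 1 and syngeneic pool 1 were run on the same day and differed by 0.46, and allogeneic pool 3 and syngeneic pool 2 shared another day and differed by 0.64. With run day as a fixed block the difference was 0.55 (adjusted p = 0.177), in a fit with little residual information.

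Against normal heart, allogeneic hearts were higher by 1.20 ± 0.35 (SE; 95% interval 0.37 to 2.04), 2.30-fold, with an adjusted p of 0.0281 by limma. This comparison called 51.9% of all assays, 26.1% as higher, so a call was common in it. Syngeneic hearts were higher than normal heart by 0.43 ± 0.35 (SE; 95% interval -0.41 to 1.27), which did not pass (adjusted p = 0.389, limma), where 19% of assays were called, 11.6% as higher. There was 1 normal array, and it was assumed to vary like the grafts. The normal heart was of the strain of the allogeneic donors, so its difference from the syngeneic grafts also crosses strains. The call for allogeneic hearts was lost without syngeneic pool 2 (adjusted p = 0.0542). That pool enters through the shared estimate of spread and through the choice of reference assays. The call was also lost in a fit of the groups compared alone (adjusted p = 0.0753).

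**Figure D1:**
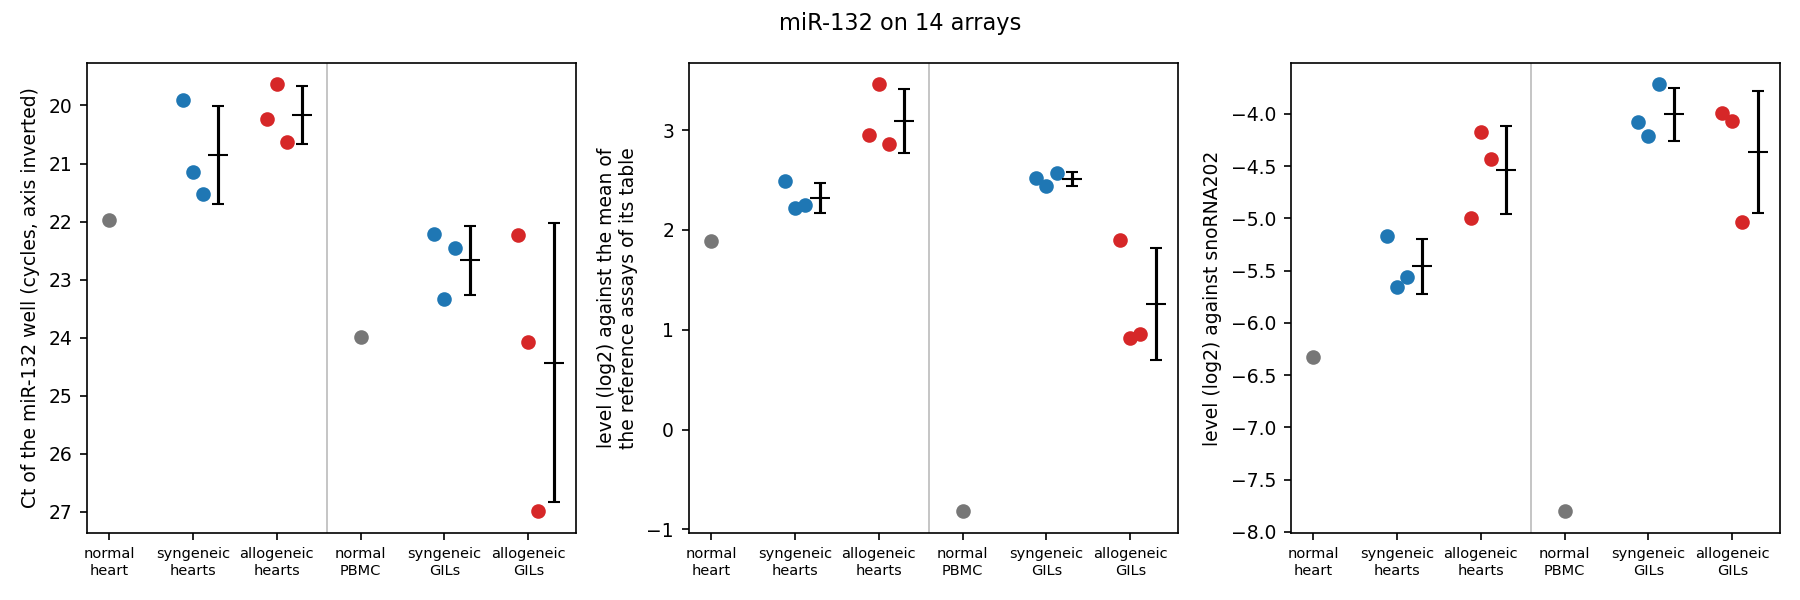
miR-132 on each array, as the Ct of its well (left, axis inverted), its log2 level against the mean of the reference assays of its table (middle) and its log2 level against snoRNA202 (right). Points are pools of 3 animals and bars the mean ± SD of 3 pools. Allogeneic hearts lie above syngeneic hearts in the middle and right panels, and allogeneic GILs lie below syngeneic GILs without overlap in the middle panel only.

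In GILs the direction was the opposite, with the lower levels in the allogeneic pools. The Ct of miR-132 was 22.2, 23.3 and 22.5 in the syngeneic pools, 22.2, 24.1 and 27.0 in the allogeneic pools, and 24.0 in PBMC. Its level was 2.52, 2.44 and 2.57 in syngeneic GILs (mean 2.51 ± 0.07 SD, n = 3), 1.90, 0.92 and 0.95 in allogeneic GILs (mean 1.26 ± 0.56 SD, n = 3), and -0.82 in PBMC. The syngeneic pools lay close together, allogeneic pool 1 lay about midway between them and the other allogeneic pools, and the groups did not overlap.

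The allogeneic GILs were lower by 2.38-fold, a difference of -1.25 ± 0.33 (SE; 95% interval -2.06 to -0.44) with an adjusted p of 0.0334 by limma. The comparison called 36.3% of the assays tested, 23.9% as lower and 12.4% as higher, and 33.3% lay lower without overlap. miR-132 ranked 61st from the lowest of 201. Without allogeneic pool 3 the difference was -1.0 and no longer passed (adjusted p = 0.0810, limma). The call was lost in 5 of the 6 fits that left out 1 pool, over which the difference ran from -1.57 to -1.0, and it held without allogeneic pool 1 (adjusted p = 0.0118). All 3 syngeneic GIL arrays were run on a day that held no other array, and the allogeneic arrays on 2 other days, so that run day and group cannot be told apart. With day as a random block the difference was -1.25 (adjusted p = 0.0323, limma). As no day held both groups, that fit cannot remove an effect of day from the difference.

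On this scale miR-132 was higher in both kinds of GILs than in normal blood cells. Syngeneic GILs exceeded PBMC by 3.33 ± 0.48 (SE; 95% interval 2.14 to 4.52), 10.1-fold, with an adjusted p of 0.00233 by limma, in a comparison that called 60.7% of assays, 28.8% as higher. Allogeneic GILs exceeded PBMC by 2.08 ± 0.47 (SE; 95% interval 0.91 to 3.25), 4.22-fold, with an adjusted p of 0.0144, where 58% of assays were called, 22.2% as higher. Without allogeneic pool 3 the differences were 3.35 and 2.35 and both kept their call. The allogeneic difference ran from 1.76 to 2.35 over the fits without 1 pool and was not called in a fit of allogeneic GILs and PBMC alone (adjusted p = 0.0705). There was 1 PBMC array, run on a day of its own.

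The GIL arrays carried microRNAs of graft tissue that were low or not detected in PBMC. Between the GIL groups, the summed levels of fibroblast and endothelial markers moved with miR-132, and those of cardiac and smooth muscle did not. The summed level of the 3 fibroblast markers miR-199a-3p, miR-199a-5p and miR-214 was 4.43 to 4.71 (log2) in syngeneic GILs, 1.91 to 3.13 in allogeneic GILs and -4.87 in PBMC, where miR-199a-5p and miR-214 were not detected. All 3 fell in allogeneic against syngeneic GILs, miR-214 by 3.45. The summed level of the endothelial markers miR-126-3p and miR-126-5p was 5.79 to 6.42 in syngeneic GILs, 4.55 to 5.32 in allogeneic GILs and 0.28 in PBMC. Of the 2, miR-126-3p fell by 1.07, and miR-126-5p differed by -0.24 and was not called (adjusted p = 0.583, limma). For these lists the order of the groups was that of miR-132.

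Markers of heart muscle, smooth muscle and leukocytes did not have this order in GILs. The summed level of the smooth muscle markers miR-143 and miR-145 was 4.75 to 6.17 in syngeneic GILs, 5.02 to 5.80 in allogeneic GILs and -2.45 in PBMC. The GIL groups overlapped in it, and neither marker was called between them. The summed level of the 6 cardiac muscle markers was 3.78 to 4.47 in syngeneic GILs, 5.18 to 6.45 in allogeneic GILs and -3.69 in PBMC, where miR-133b, miR-208, miR-208b and miR-499 were not detected. The summed level of the 4 leukocyte markers was 5.23 to 6.05 in syngeneic GILs, 5.83 to 6.46 in allogeneic GILs and 8.53 in PBMC. Among the leukocyte markers miR-142-3p rose in allogeneic GILs, by 1.60, and the other 3 did not pass. The part of graft tissue in the miR-132 differences was not tested, and that tissue also differed in strain between allogeneic and syngeneic grafts.

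In whole hearts the marker lists moved with the groups as well. Of the 6 cardiac muscle markers 5 fell in allogeneic hearts, and the sixth, miR-499, had a difference of -0.74 (adjusted p = 0.0587, limma). The summed level of cardiac muscle markers was 12.2 in normal heart, 10.5 to 11.3 in syngeneic hearts and 9.13 to 9.47 in allogeneic hearts, so its order was the reverse of that of miR-132. The summed level of leukocyte markers was 6.63 in normal heart, 7.04 to 7.48 in syngeneic hearts and 7.75 to 8.16 in allogeneic hearts. That is the order of miR-132. Of the 4 leukocyte markers, miR-142-3p and miR-142-5p rose, by 1.64 and 1.02, and miR-150 and miR-223 were not called. The fibroblast markers, which had the order of miR-132 in GILs, summed to 3.41 in normal heart, 3.91 to 4.67 in syngeneic hearts and 2.06 to 2.84 in allogeneic hearts, and both that were tested fell, miR-199a-3p by 1.94 and miR-214 by 1.85. The endothelial markers summed to 10.03 in normal heart, 8.55 to 9.0 in syngeneic hearts and 6.78 to 7.39 in allogeneic hearts, and both fell, miR-126-3p by 1.64 and miR-126-5p by 1.30. In allogeneic against syngeneic hearts both lists thus went against miR-132. Of the remaining markers, 1 of 2 of smooth muscle fell and 1 of 2 of erythroid cells rose in allogeneic hearts, and 1 of 3 of neurons rose in allogeneic GILs. The part of these cell types in the heart difference was not tested.

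**Figure D2:**
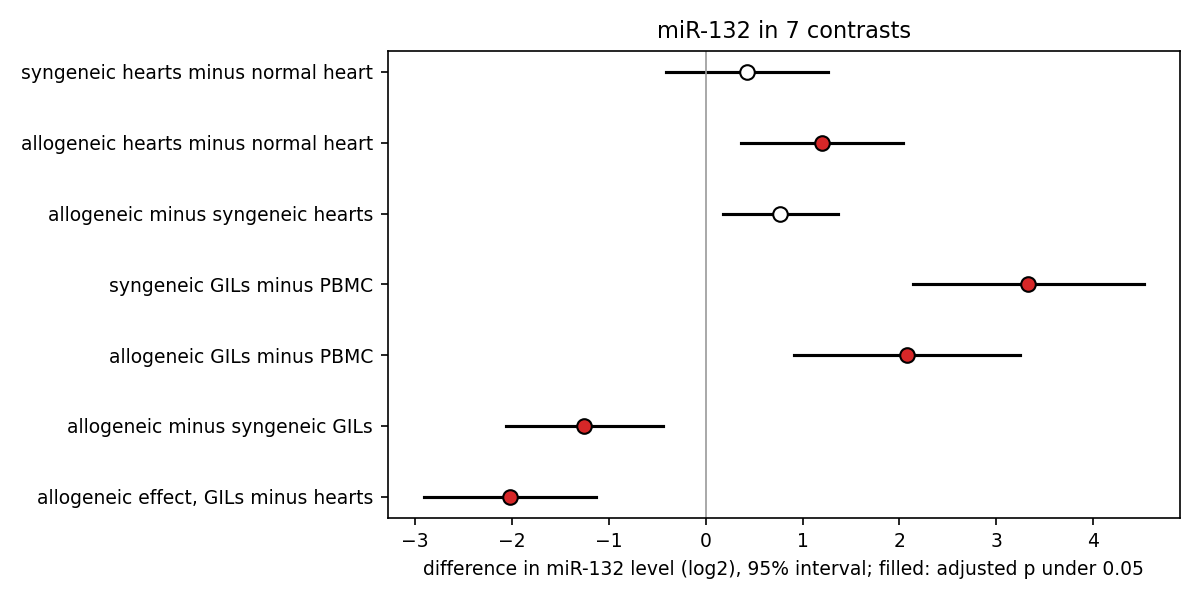
Differences in the log2 level of miR-132 in 7 contrasts, as points with 95% intervals from the limma fit, filled where the adjusted p is under 0.05. The 3 heart points lie above 0, with the interval of syngeneic hearts against normal heart crossing it, both contrasts of GILs with PBMC lie at 2.08 and 3.33, and the allogeneic effect is on the negative side in GILs.

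On the scale of the reference assays, the allogeneic minus syngeneic differences in GILs and in hearts differed from each other. The allogeneic minus syngeneic difference was lower in GILs than in hearts by 2.02 on the log2 scale (-2.02 ± 0.40 SE; 95% interval -2.91 to -1.13), with an adjusted p of 0.00710 by limma over the 12 transplant arrays. The comparison called 28.8% of 198 assays, 20.7% as lower, and miR-132 ranked 40th from the lowest. The value ran from -2.35 to -1.77 over the 12 fits that left out 1 pool, and the call held in 12 of 12, with -1.77 the value without allogeneic GIL pool 3. GILs and hearts also differed in the day of sampling, 5 against 7. In the GIL part of this contrast run day and group cannot be told apart, and leaving out pools does not change that.

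Not all scalings gave these calls. Scaled to the nuclear RNA MammU6, to snoRNA135 with snoRNA202, or to snoRNA202 alone, the allogeneic minus syngeneic difference in GILs was -0.43, -0.60 and -0.36, with adjusted p-values of 0.411, 0.348 and 0.578 by limma. These GIL differences include allogeneic pool 3. With snoRNA202 alone the levels were -3.99, -4.07 and -5.04 in the allogeneic pools, pool 3 last, and -4.08, -4.21 and -3.72 in the syngeneic pools. The small RNA controls moved the median of all assays tested in GILs from -0.24 to 0.58, 0.41 and 0.65. Relative to that median miR-132 was at -1.01 under all 3 and under the main scaling, since such a scaling shifts all assays of an array alike. In hearts the difference under the same controls was 0.65, 0.70 and 0.93 (adjusted p = 0.460, 0.103 and 0.0707, limma), and it was 0.75 above the median of all assays under each. The difference between the effects was -1.09, -1.30 and -1.29 with these controls and was not called (adjusted p = 0.270, 0.0876 and 0.10, limma).

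The authors' deposited table gives relative quantities, scaled to snoRNA202 and set to 1 in the normal array. For miR-132 the authors' deposited table holds 2.24, 1.60 and 1.70 in the syngeneic hearts and 2.52, 4.47 and 3.71 in the allogeneic hearts, which did not overlap. In the authors' deposited table syngeneic GILs were at 13.2, 12.1 and 17.0 and allogeneic GILs at 14.1, 13.4 and 6.81. In these values allogeneic GIL pools 1 and 2 lay within the range of the syngeneic pools and pool 3 below it, and all 6 were above PBMC.

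**Figure D3:**
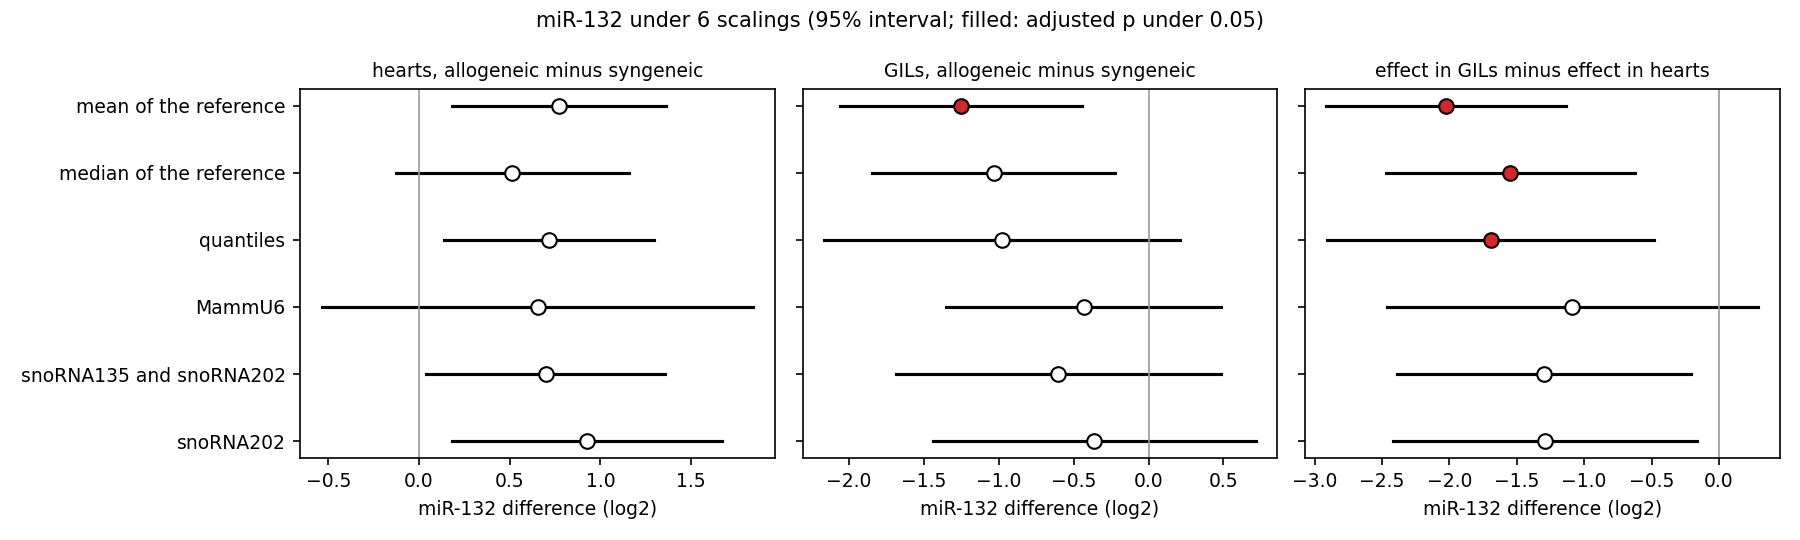
The allogeneic minus syngeneic difference of miR-132 (log2, with 95% interval) in hearts (left), in GILs (middle) and the difference between the 2 effects (right) under 6 scalings, filled where limma's adjusted p is under 0.05. The points keep their side of 0 under all 6, and in GILs the call is made under the mean of the reference assays only.

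Differences between Ct values of 2 wells on the same array need no scaling, and were taken against 3 microRNAs induced in activated immune cells, chosen after values were seen and given without a test. In GILs the Ct of miR-155, a microRNA of activated lymphocytes and macrophages, minus that of miR-132 was 2.22 to 2.61 cycles in the 3 syngeneic pools and -1.16 to -0.29 in the 3 allogeneic pools. The groups did not overlap, and this shift includes the rise of miR-155 itself in allogeneic GILs, 1.98 on the scaled levels. In hearts miR-155 minus miR-132 was -0.77 ± 0.60 in syngeneic and -1.10 ± 0.77 in allogeneic pools (SD, n = 3) and the groups overlapped.

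The difference moved the same way in GILs against miR-146a, an inhibitor of Toll-like receptor signalling, and against miR-21, which is raised in injured and inflamed tissue. miR-146a minus miR-132 was -0.34 ± 0.21 cycles in syngeneic and -2.75 ± 0.42 in allogeneic GILs (SD, n = 3), without overlap, and includes the rise of miR-146a itself, 1.16. miR-21 minus miR-132 was -1.88 ± 0.04 in syngeneic and -3.76 ± 0.80 in allogeneic GILs (SD, n = 3), also without overlap, where miR-21 itself differed by 0.62 and did not pass (adjusted p = 0.0822, limma). In hearts miR-146a minus miR-132 went the other way, from -3.73 ± 0.31 in syngeneic to -2.99 ± 0.82 in allogeneic pools (SD, n = 3), and the groups overlapped. In hearts miR-21 minus miR-132 went from -4.26 ± 0.11 in syngeneic to -5.04 ± 0.36 in allogeneic pools (SD, n = 3), without overlap. This shift includes the rise of miR-21 itself in allogeneic hearts, given below, and the heart difference of miR-132, which was not called. These values compare wells with different assays, so the change between groups can be read and the level of one microRNA against the other cannot.

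**Figure D4:**
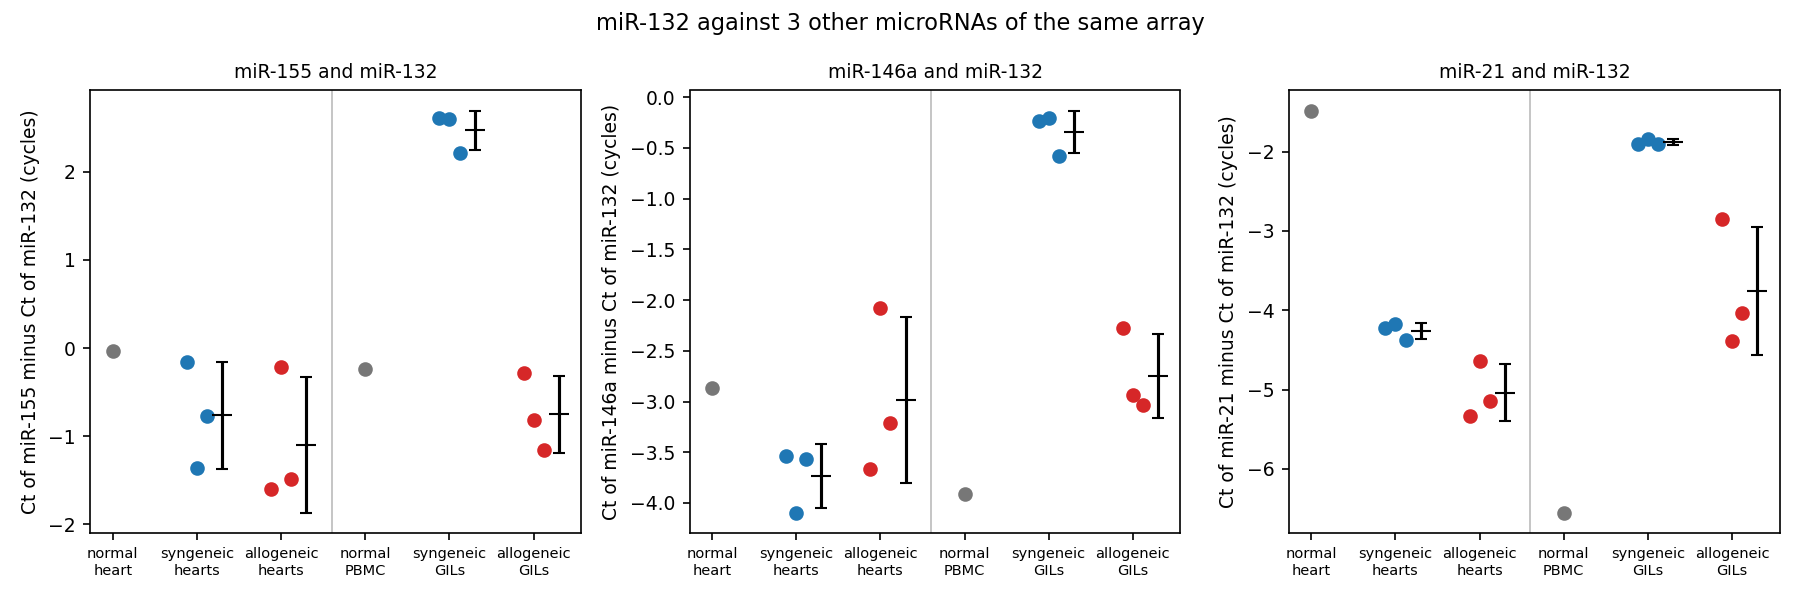
Ct of miR-155, miR-146a and miR-21 minus the Ct of miR-132 on the same array, in cycles. Points are pools and bars the mean ± SD of 3 pools. In GILs the syngeneic pools lie above the allogeneic pools in all 3 panels, with no overlap, and in hearts the groups overlap for miR-155 and miR-146a.

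To order the 6 groups, levels were set on 1 scale over 14 arrays from 133 assays detected on each, although the 2 tables were processed separately, so the order is a description. Syngeneic GILs were highest at 2.47 ± 0.06, followed by allogeneic hearts at 1.42 ± 0.30, allogeneic GILs at 1.24 ± 0.56 and syngeneic hearts at 0.78 ± 0.14 (SD, n = 3 each), then normal heart at 0.35 and PBMC at -0.86. Allogeneic hearts and allogeneic GILs overlapped, as did allogeneic GILs and syngeneic hearts, and the other neighbours in the order did not overlap. The order was the same with MammU6 and with the 2 snoRNAs, where the top groups overlapped. With snoRNA202 alone, allogeneic GILs came second and allogeneic hearts next, and these overlapped.

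The assays whose levels followed miR-132 most closely differed between the tables. In hearts they were miR-210, a microRNA induced by low oxygen, miR-141 of the epithelial miR-200 family, and miR-362-3p (Pearson r of 0.97 each over 7 arrays, of 209 assays compared). All 3 rose in allogeneic against syngeneic hearts by limma, by 2.55 (adjusted p = 0.00322), 1.5 (adjusted p = 0.0436) and 1.13 (adjusted p = 0.0249). In GILs and PBMC they were the assay with the rat name rno-miR-224, miR-34b-3p and miR-337-5p (r of 0.97 each, of 136 compared). These fell in allogeneic GILs by 2.69 (adjusted p = 0.00770), 2.26 (adjusted p = 0.00548) and 2.25 (adjusted p = 0.00785, limma), and were above PBMC in syngeneic GILs by 6.71 to 8.67. The correlations share arrays and scaling and span the groups, and without the normal array they were 0.96 for each in hearts and 0.91 to 0.96 in GILs. Since the assays were picked by likeness to miR-132 on these same arrays, their group differences and p-values are no independent evidence.

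The other microRNAs linked to neuronal activity and CREB held 1 call in each direction in GILs and none in hearts. In allogeneic against syngeneic hearts 4 of 6 were tested and none was called by limma, nor was any at an unadjusted p under 0.05 (0 of 4), where 32.4% of all assays were called, with a median of 0.12 against 0.02 over all assays. The smallest p was that of miR-9, with a difference of -0.71 (adjusted p = 0.136). In GILs 4 were tested, with a median of -0.49 against -0.24 over all assays, and 36.3% of all assays were called. miR-124, abundant in neurons, rose by 1.80 (adjusted p = 0.0102), and miR-134, a dendritic microRNA, fell by 3.90 (adjusted p = 0.0478, detected in 2 of 3 allogeneic pools), the direction of miR-132. The differences of miR-138 and miR-9 were -0.69 (adjusted p = 0.0640) and -0.30 (adjusted p = 0.686, limma). In the difference between the effects, miR-134 was called lower as miR-132 was, at -4.34 (adjusted p = 0.0309, limma).

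Of 8 microRNAs induced by Toll-like receptor signalling, 2 rose and 1 fell in allogeneic hearts, where 17.2% of all assays were called higher and 15.1% lower. Their median was 0.62 against 0.02 over all assays. miR-147 rose by 3.69 and miR-21 by 1.55, and miR-187 was detected in 0 of 3 allogeneic pools and was at least 283-fold lower. In GILs 7 were tested and 2 rose, miR-155 by 1.98 and miR-146a by 1.16, with a median of 0.50 against -0.24 over all assays. The share called in either direction was near or below that of all assays, 32.4% in hearts and 36.3% in GILs.

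Among microRNAs reported as raised in cardiac hypertrophy, a setting in which the miR-132 family has been studied, 11 were tested in hearts and 3 rose and 3 fell, with a median of -0.20 against 0.02 over all assays, of which 17.2% rose and 15.1% fell. miR-21, miR-222 (by 1.22) and miR-221 (by 1.15) rose, and miR-199a-3p (by 1.94), miR-214 (by 1.85) and miR-195 (by 0.98) fell. In GILs 12 were tested and 1 rose, miR-27b by 0.78, and 4 fell, which were miR-214 by 3.45, miR-199a-3p by 1.38, miR-125b-5p by 1.32 and miR-199a-5p by 1.31, with a median of -0.19 against -0.24 over all assays. In that comparison 12.4% of all assays rose and 23.9% fell, so the count was close to the background. Some of these are also the fibroblast markers above.

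Of 12 microRNAs reported as lowered in hypertrophy, 7 fell and none rose in allogeneic hearts by limma, where 15.1% of all assays fell and 17.2% rose, with a median of -0.80 against 0.02 over all assays. They included miR-1 (by 1.53), miR-133a (by 1.67) and miR-133b (by 1.79) of heart muscle, and miR-30c (by 1.25), miR-30e (by 1.02), miR-30b (by 0.80) and miR-26a (by 0.80). In GILs 3 of 12 rose, miR-133a by 1.67, miR-133b by 1.54 and miR-29c by 1.46, and none fell, with a median of 0.52 against -0.24 over all assays, of which 12.4% rose and 23.9% fell. The GIL difference of miR-1 was 1.66 and did not pass (adjusted p = 0.0787, limma). miR-1, miR-133a and miR-133b are also among the cardiac muscle markers above. The differences of miR-133a and miR-133b had the opposite sign to that of miR-132 in both tables, and the heart difference of miR-132 missed the threshold.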

How the data were processed

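Each array was a TaqMan rodent microRNA card of 384 wells (381 detectors) run on pooled RNA of 3 animals, 100 ng each and 300 ng in all, after preamplification, per the labels. The authors exported the values with SDS 2.4, per the file headers. The deposited Ct (here a score with no fixed range) was the value used. The deposited delta Ct is on a log2 scale and equals Ct minus that of snoRNA202 to within 0.0005, and the relative quantity in the deposited tables is a ratio, with the normal array as 1. Baseline and threshold settings were not given in the sources used here.

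Ct values at or above 35 and undetermined wells were set to 35. 1 heart well (let-7b) that carried another array name was left out. Levels were minus Ct after subtraction of the mean Ct of the reference assays. An assay was tested when detected on every array of at least 1 group compared. limma 3.58.1 in R 4.3.3 (lmFit, eBayes, 3 groups per table) gave differences, with Benjamini-Hochberg adjustment over the assays tested. The difference between tissues was an interaction contrast over 12 arrays. The code was tested on simulated data. Arrays give no counts, and their number limits the precision. Named assays were miR-132, the 3 most correlated assays per table, list members called in an allogeneic against syngeneic comparison (otherwise the smallest p), and marker lists. The members and lists were chosen with earlier results of these data known. The planned within-array difference of miR-132 and miR-212 could not be made, since miR-212 was not analysed here. Other scalings, detection limits, filters, blocks and left-out pools were tried.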

Additional observations from a re-analysis of the deposited data

Results flagged for a closer look

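The effect of an allogeneic graft on miR-132 differed between GILs and hearts by -2.02 on the log2 scale (the allogeneic minus syngeneic difference in GILs less that in hearts; adjusted p = 0.00710, limma interaction contrast over 12 arrays). On the levels scaled to the mean of the reference assays, all 3 allogeneic heart pools were above the syngeneic heart pools, and all 3 allogeneic GIL pools were below the syngeneic GIL pools. The heart groups overlapped in Ct, with MammU6 and narrowly with the median of the reference assays. The GIL groups overlapped in Ct, with quantiles, and with snoRNA202 alone or with snoRNA135. The difference kept its direction in 26 of 26 alternatives and its call in 23, and was not called with the 3 scalings to small RNA controls. In its GIL part, run day and group cannot be told apart. The cause of the difference was not tested.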

How the results depend on the processing

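The direction of miR-132 was kept in all alternatives run for all 7 contrasts. Syngeneic GILs minus PBMC was called in 20 of 20 alternatives (2.24 to 3.80) and syngeneic hearts minus normal heart in 0 of 20 (0.34 to 0.87). The heart difference became a call with a detection limit of Ct 38 (0.79, adjusted p = 0.0497), undetermined wells at 40 (0.79, adjusted p = 0.050), assays detected on all arrays (0.77, adjusted p = 0.0432) and wells marked by the software set to missing (0.78, adjusted p = 0.0451), and ran from 0.60 to 0.92 without 1 pool. Allogeneic hearts minus normal heart lost its call with MammU6 (1.43), snoRNA135 and snoRNA202 (1.06), the median of the reference (1.00), no filter (1.20) and only the groups compared (1.20), and ran from 1.04 to 1.33 without 1 pool. The GIL difference lost its call with MammU6 (-0.43), snoRNA135 and snoRNA202 (-0.60), snoRNA202 (-0.36), the median (-1.03), quantiles (-0.98) and no filter (-1.25), and ran from -1.57 to -1.0 without 1 pool. Allogeneic GILs minus PBMC lost it with no filter (2.08) and only the groups compared (2.08), and the difference between the effects with MammU6 (-1.09), snoRNA135 and snoRNA202 (-1.30) and snoRNA202 (-1.29). Without a filter more assays enter the adjustment, and with fewer groups fewer arrays give the spread. The cause of the other changes was not tested.

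With the replicate number as a block the GIL difference was -1.25 (adjusted p = 0.0684), the heart difference 0.77 (adjusted p = 0.127) and the difference between the effects -2.02 (adjusted p = 0.0360). Deviations of same-numbered pools correlated at -0.04, -0.29 and 0.12 in hearts and 0.19, 0.23 and -0.16 in GILs. Those of differently numbered pools ran from -0.37 to 0.36 in hearts and from -0.30 to 0.09 in GILs. With so few pools these values cannot settle whether the numbers pair them.

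Over all assays, the 77 calls in hearts became 34 with MammU6, 42 with no filter, 46 with the replicate block, 2 with run day as a block, and 42 to 45 without syngeneic pool 2 or 3 or allogeneic pool 1. The 73 in GILs became 31 with both snoRNAs, 48 with snoRNA202, 35 with no filter, and 40 to 46 without 1 syngeneic pool. The 57 of the difference between the effects became 15 to 36 with the 3 control scalings, either filter or the replicate block. Calls against normal arrays fell from 46 to 24 and from 125 to 58 in hearts with MammU6, and from 123 to 62, 63 and 69 for allogeneic GILs with both snoRNAs, snoRNA202 and only the groups compared. The share of calls that were higher was 34.2% in GILs and 48 to 79.2% under the other scalings, and 53.2% in hearts, 30% with the median and 64.6% with snoRNA202. On the common scale, syngeneic GILs exceeded allogeneic hearts by 1.06, and by 0.34 to 0.53 with small RNA controls. A fixed block for run day could be fitted for hearts only.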
